A study of Mus musculus with 24 samples.

Results

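Pomalidomide given alone was compared with control in MM.1S plasmacytomas. The comparison was defined by the sample titles and took 6 of the 24 arrays of the series, 3 labelled pomalidomide and 3 labelled control, with 1 probe set for each of 14884 named genes. MM.1S is a human multiple myeloma line, grown here with Matrigel under the skin of CB17-SCID mice, which lack functional B and T cells. Mice were assigned to groups at random once a tumour could be felt. The pomalidomide group received 8 mg/kg intraperitoneally for 2 days. The controls are called untreated in the sample fields and vehicle-treated (PBS) in the treatment protocol. The age and sex of the mice were not given in the labels used here, and both groups carried tumours of the same line. The other 18 arrays held filanesib (10 mg/kg), dexamethasone (0.5 mg/kg) and each combination of the 3 drugs at the same doses, all for 2 days, with 3 arrays a group. The labels do not say that each array came from its own mouse, and the p-values cover only the spread from array to array, which may be partly technical.

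Pomalidomide is an immunomodulatory drug that binds cereblon, the substrate receptor of a CRL4 ubiquitin ligase, and redirects it to the transcription factors Ikaros (IKZF1) and Aiolos (IKZF3), which are degraded. In myeloma cells the loss of these factors is known to lower IRF4 and MYC, on which the cells depend, and to release interferon-stimulated genes that Ikaros family proteins repress. The degradation itself happens to the protein and need not be visible in the RNA measured here.

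The organism given in the labels is the mouse, but the array's probes are annotated to human genes. What was measured is RNA of the human tumour cells, plus any RNA of the host that bound the same probes. The 7 myeloma and plasma cell markers on the array, among them SDC1, CD38 and SLAMF7, averaged 9.33 to 9.45 on the log2 scale in pomalidomide arrays and 9.39 to 9.53 in control arrays, against a median gene level of 4.79. Of the 8 macrophage markers, 7 lay below that median level, and the list averaged 4.38 to 4.44 in pomalidomide arrays and 4.19 to 4.31 in control arrays. The 3 pomalidomide arrays differed more among themselves than those of any other group. Their residual SD around the group mean was 0.24 to 0.35, against 0.16 to 0.22 in the other 21 arrays. In bulk tumour RNA, fewer cells of a type and less RNA per cell cannot be told apart.

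In pomalidomide tumours 7 of 32 interferon-stimulated effector genes were called higher, together with the chemokine CXCL10, the receptors MILR1 and CD180 and the adaptor STING1. Called lower were 16 of 26 genes for DNA replication, the transcription factors MYB and MYC and the purine enzyme AMPD1. A gene is called here where the adjusted p of limma's moderated test was under 0.05 (Benjamini-Hochberg over all genes, spread pooled over 24 arrays). Of the 14884 genes, 294 were called, which is 1.98% of those tested. They comprised 75 higher genes (0.504%) with a median log2 difference of 0.72 and 219 lower genes (1.47%) with a median of -0.61. Changes of at least 2-fold made up 22 of the higher and 12 of the lower genes. The split depended on scaling, with 97 higher and 101 lower genes after quantile normalising the gene values once more and 88 and 128 after median centring.

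The count rested on the spread pooled over all groups. Fitted on the 6 arrays alone, 3 genes were called (IFI44, MIR3147 and MIR539), with the larger spread of the pomalidomide group built in as a group weight 1 gene was called (SCARNA10), and with a weight per array 62 were called. Leaving out 1 of the 6 arrays at a time gave 23 genes without control array 1, 35 without control array 3, 122 without pomalidomide array 3, 236 without pomalidomide array 1, 258 without control array 2 and 828 without pomalidomide array 2. Without pomalidomide arrays 1 and 3 together, 2 genes were called. In all 6 omissions 19 of the 294 genes were called. The 3 arrays did not overlap between groups for 978 higher genes (6.57%) and 1349 lower genes (9.06%), 15.6% of all genes together. This split turned round with scaling and probe sets, to 1286 higher and 1056 lower after median centring and 4554 and 3761 over every probe set, and was 1075 and 1105 after further quantile normalisation.

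CXCL10, a chemokine that attracts T and NK cells and is a classical interferon target, had the largest rise among protein-coding genes. Its log2 level was 8.60, 7.57 and 8.75 in pomalidomide arrays and 5.74, 6.70 and 6.48 in control arrays. All 3 pomalidomide arrays lay above all control arrays, as the choice of the 15 largest rises required. The difference was 4.0-fold (2.00 ± 0.45 on the log2 scale, SE, adjusted p = 0.0254). XAF1, an interferon-inducible antagonist of inhibitor-of-apoptosis proteins, had the smallest adjusted p of the 15 largest protein-coding rises. It had levels of 7.68, 8.25 and 8.11 in pomalidomide arrays, against 6.22, 6.77 and 6.54 in control arrays. The difference of 1.5 ± 0.23 (adjusted p = 0.00451) was called in all 6 omissions, whereas that of CXCL10 was called in 2 of them.

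**Figure D1:**
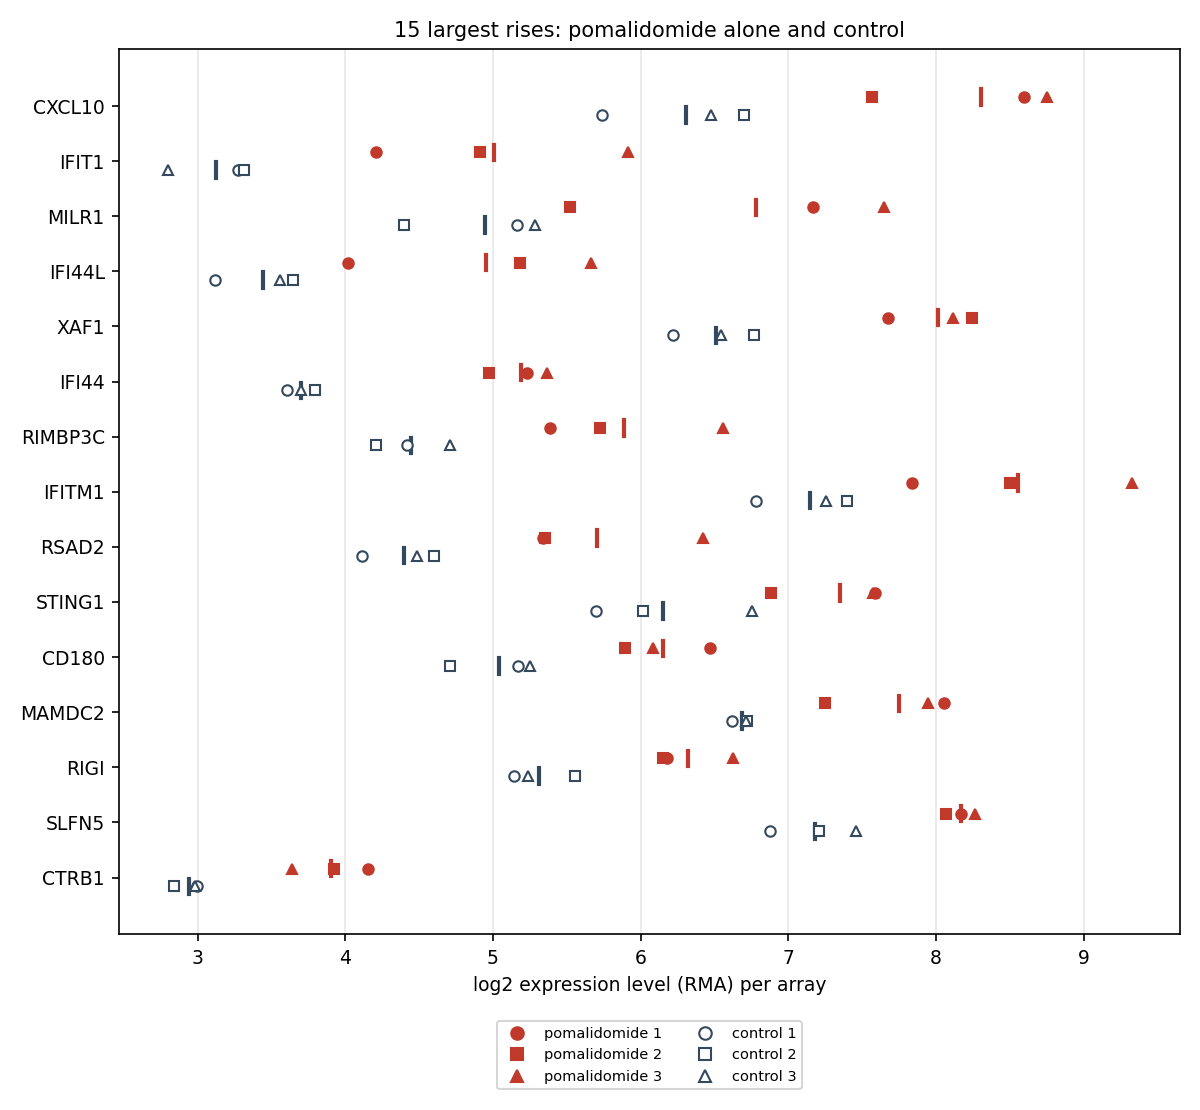
Log2 level per array of the 15 protein-coding genes with the largest called rises, pomalidomide alone (filled red, upper row of each gene) and control (open, lower row); vertical ticks are group means and marker shapes the array number. The genes were chosen among those whose groups do not overlap, and pomalidomide array 2 is the lowest of its group for CXCL10 and MILR1.

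Interferon-stimulated effector genes, the products of interferon signalling that restrict viruses, were mostly higher. Of 32 measured, 7 were called higher and none lower, against 0.504% of all genes called higher. The members of this list, like those of the other lists, were chosen with earlier results of these data known. That choice may raise the share. The list's median difference was 0.51 on the log2 scale beside -0.02 for all genes. Of the 32 differences, 31 were positive, and 19 genes had higher levels in every pomalidomide array than in any control array, as 6.57% of all genes did. IFI44 had levels of 5.23, 4.97 and 5.37 in pomalidomide arrays and 3.60, 3.80 and 3.70 in control arrays. These groups stood well apart, with a difference of 1.49 ± 0.25 (adjusted p = 0.00504), and IFI44 was called in all 6 omissions. IFIT1, which binds foreign RNA ends, was at 4.21, 4.91 and 5.91 in pomalidomide arrays and at 3.27, 3.31 and 2.80 in control arrays. Its difference was 1.88 ± 0.43 (adjusted p = 0.0271), with wide scatter in the pomalidomide group.

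IFI44L rose by 1.52, the membrane restriction factor IFITM1 by 1.41 and RSAD2, the antiviral enzyme viperin, by 1.31 on the log2 scale. EPSTI1, named after its value was seen as the last of the 7 called members, rose by 0.52. Among members that missed the threshold and were likewise chosen with their values known, IFIT3 differed by 1.75 (adjusted p = 0.0513), MX2 by 0.96 (0.0965), GBP4 by 0.70 (0.314), ISG15 by 0.66 (0.269) and DTX3L by 0.41 (0.318). ISG15, a ubiquitin-like modifier, shows how uneven the pomalidomide arrays were. It had 6.52, 6.81 and 8.16 in pomalidomide arrays and 6.57, 6.70 and 6.25 in control arrays, so that pomalidomide array 3 alone stood clearly above the controls. The median of the list over the control mean was 0.42, 0.41 and 0.73 in pomalidomide arrays 1, 2 and 3. Of the 7 called effectors, 2 were called without control array 1, 2 without control array 3, 2 without pomalidomide array 3, and 6 or 7 in each other omission. With group weights 0 were called, and on the 6 arrays alone 1.

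Upstream of these effectors, the list of interferon sensing and signalling genes was mixed. Of 25 measured, 4 were called higher (0.504% of all genes were) and 0 lower, the list's median difference was 0.01, and 13 differences were positive. The 4 were STING1, RIGI, IFIH1 and IFNGR1. STING1, the adaptor that relays cytosolic DNA sensing, had 7.59, 6.88 and 7.58 in pomalidomide arrays and 5.70, 6.02 and 6.75 in control arrays. The lowest pomalidomide array was only slightly above the highest control, and the difference was 1.19 ± 0.31 (adjusted p = 0.046). RIGI and IFIH1, both sensors of viral RNA, rose by 1.0 and 0.53, and IFNGR1, a chain of the interferon-gamma receptor, rose by 0.56. None of the 4 called genes was called without control array 1, without control array 3, without pomalidomide array 1 or without pomalidomide array 3.

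SLFN5, a Schlafen family protein induced by interferon, rose by 0.99, with 8.17, 8.07 and 8.26 in pomalidomide arrays and 6.87, 7.21 and 7.46 in control arrays. Among class I antigen presentation genes, 4 of 18 listed were measured and 0 were called. B2M, the light chain of class I molecules, had 10.37, 10.13 and 10.26 in pomalidomide arrays and 9.91, 10.04 and 10.03 in control arrays, a difference of 0.26 (adjusted p = 0.198). The class II and proteasome lists had 0 measured members. Of 14 chemokines and NF-kB targets only CXCL10 was called, beside 1.98% of all genes. NFKB2, the precursor of the p52 subunit, differed by -0.50 (adjusted p = 0.1).

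Of 18 receptor genes of B-lineage and innate cells, 3 were called higher, against 0.504% of all genes, and 0 lower. Their median difference was 0.24, beside -0.02 for all genes. MILR1, an inhibitory immunoglobulin-like receptor described in mast cells, had 7.17, 5.52 and 7.65 in pomalidomide arrays and 5.16, 4.40 and 5.29 in control arrays. Pomalidomide array 2 lay just above the controls and the other arrays of its group far above. The difference was 1.83 ± 0.39 (adjusted p = 0.0207), called in 1 of the 6 omissions. The SD of MILR1 was 1.12 within the pomalidomide group and 0.48 within the control group. Its adjusted p was 0.139 with group weights and 0.334 on the 6 arrays alone. CD180, a Toll-like receptor homologue of B cells, had 6.47, 5.89 and 6.09 in pomalidomide arrays against 5.17, 4.71 and 5.25 in control arrays. Its rise of 1.11 ± 0.22 (adjusted p = 0.0139) was called in 5 omissions. LY86, also called MD-1, the partner protein of CD180, had 8.07, 8.41 and 8.34 in pomalidomide arrays and 7.01, 7.41 and 7.67 in control arrays, also without overlap, and its difference of 0.91 had an adjusted p of 0.0507. TLR4 rose by 0.52.

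CD68, a lysosomal membrane glycoprotein widely used as a macrophage marker, rose by 0.94 ± 0.18 (adjusted p = 0.0105). It had 9.73, 9.63 and 10.20 in pomalidomide arrays and 8.95, 8.56 and 9.21 in control arrays. The other 7 measured macrophage markers lay below the median gene level, and none of them was called. LYZ, for example, had 2.74, 2.70 and 2.84 in pomalidomide arrays and 2.69, 2.68 and 2.43 in control arrays, and CD163 had 3.20, 2.96 and 3.11 against 2.76, 3.03 and 2.70. Of the 16 lysosomal genes, CD68 was the only one called, beside 1.98% of all genes. GRN, the lysosomal protein progranulin, had 10.15, 10.02 and 10.69 in pomalidomide arrays and 9.27, 9.25 and 9.92 in control arrays, a difference of 0.81 with an adjusted p of 0.0596. No marker of neutrophils (8 measured), T and NK cells (6), endothelium (9), fibroblasts (4), smooth muscle (5), adipocytes (6) or keratinocytes (6) was called.

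The 15 largest protein-coding rises also included genes outside these lists. RIMBP3C rose by 1.44 ± 0.32, MAMDC2 by 1.07 ± 0.26 and CTRB1, the gene of the pancreatic protease chymotrypsinogen B, by 0.97 ± 0.17. CTRB1 lay below the median gene level of 4.79 in both groups and was called in all 6 omissions. It had 4.15, 3.92 and 3.64 in pomalidomide arrays and 2.99, 2.84 and 2.98 in control arrays. RIMBP3C was called in 2 of the 6 omissions, and dexamethasone arrays (5.30 to 5.71) also lay above its controls (4.21 to 4.71). Beside other drugs MAMDC2 was called higher, at 0.76, while RIMBP3C (0.27) and CTRB1 (0.12) were not called. Of the 15 rises, 3 were called without control array 1, 4 without control array 3, 4 without pomalidomide array 3 and 10 to 15 in each other omission.

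Genes of DNA replication and the G1/S transition were lower throughout. Of 26 measured, 16 were called lower and 0 higher, against 1.47% of all genes called lower, and all 26 differences were negative. These members too were chosen with earlier results of these data known, which may raise the share. The list's median difference was -0.66. The median over all genes was -0.02, and over the brighter part of the genes, those at or above the median level, it was -0.11. UHRF1, which couples DNA replication to maintenance of DNA methylation, had 6.71, 6.91 and 6.68 in pomalidomide arrays and 7.45, 7.31 and 7.46 in control arrays. Both groups were tight, and the difference of -0.64 ± 0.11 (adjusted p = 0.00504) was called in all 6 omissions.

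All 6 subunits of the MCM2-7 ring, the core of the replicative helicase, were called lower. MCM2 had 7.41, 7.79 and 7.59 in pomalidomide arrays and 8.46, 8.01 and 8.51 in control arrays, a difference of -0.73 ± 0.13 (adjusted p = 0.00727). The other subunits, chosen with their values known, differed by -0.69 (MCM3), -0.76 (MCM4), -0.59 (MCM5), -0.73 (MCM6) and -0.64 (MCM7). In MCM5 the groups overlapped, because 7.90 in pomalidomide array 2 exceeded 7.87 in control array 2. CDT1 and CDC6, which load the ring onto DNA, fell by 0.81 and 0.85, GINS2, a subunit of the active helicase, fell by 0.91, and MCM10 fell by 0.62.

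E2F1, the transcription factor that drives many of these genes, fell by 1.04 ± 0.22 (adjusted p = 0.0187), with 5.66, 6.57 and 6.62 in pomalidomide arrays against 7.59, 6.95 and 7.44 in control arrays. The nucleotide enzymes TYMS and RRM2, chosen with their values known, fell by 0.72 and 0.59. CDC45, PCNA and CCNE1 did not pass, with differences of -0.49 (adjusted p = 0.072), -0.51 (0.086) and -0.84 (0.0794). The list's median over the control mean was -0.52, -0.46 and -0.83 in pomalidomide arrays 1, 2 and 3. Of the 16 called members, 1 was called without control array 1, 2 without control array 3, 5 without pomalidomide array 3 and 14 to 16 in each other omission, and 0 were called with group weights or on the 6 arrays alone.

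**Figure D2:**
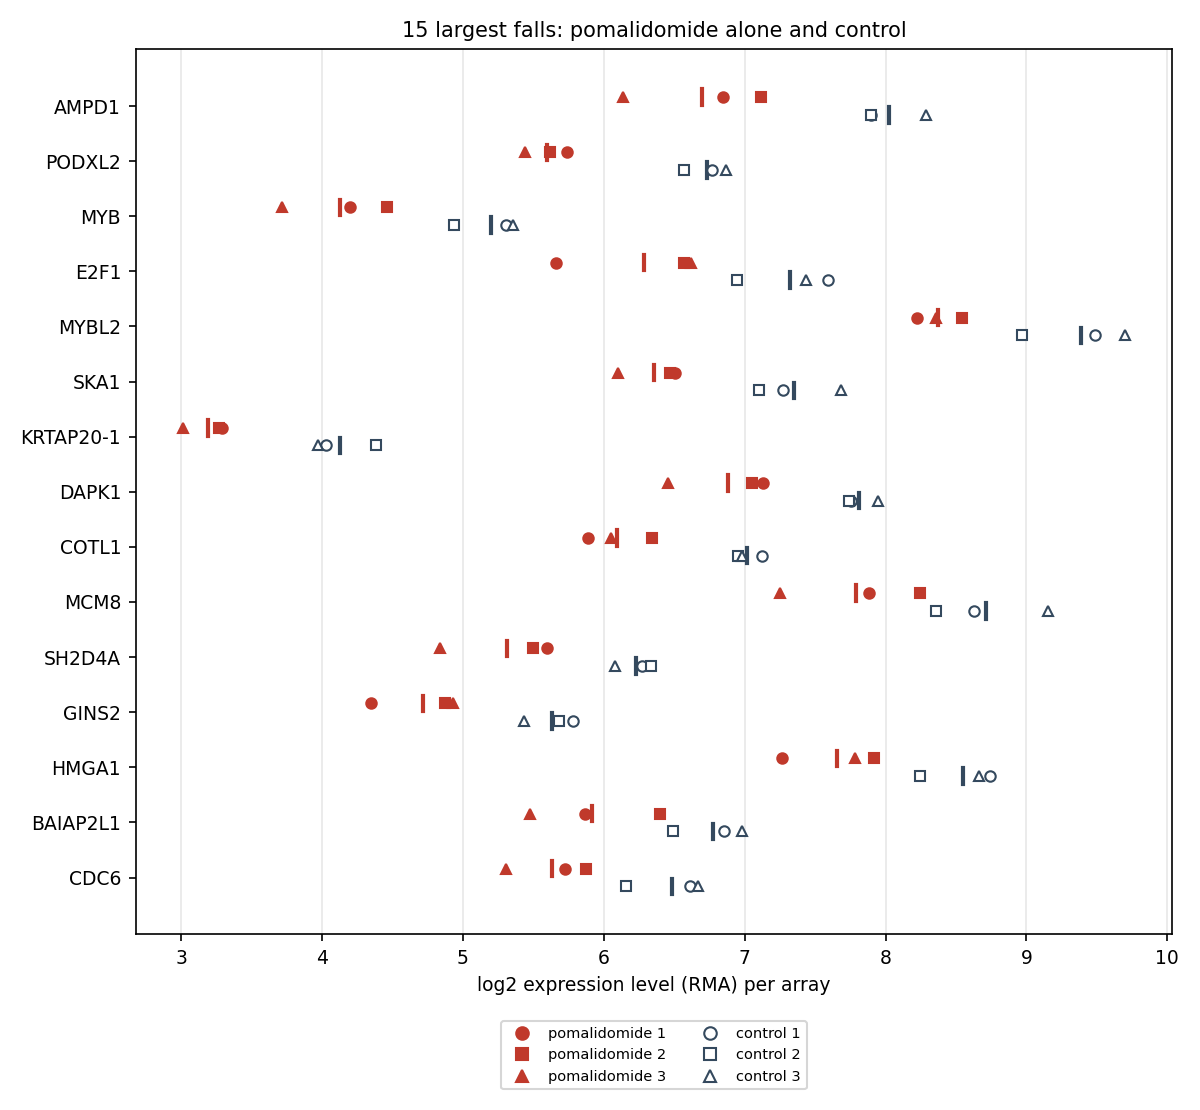
Log2 level per array of the 15 protein-coding genes with the largest called falls, pomalidomide alone (filled red, upper row of each gene) and control (open, lower row); vertical ticks are group means and marker shapes the array number. The genes were chosen among those whose groups do not overlap, and control array 2 is the lowest control for MYB, E2F1, MYBL2 and CDC6.

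Of 36 measured genes of mitosis and the spindle, 3 were called lower, against 1.47% of all genes, and 0 higher. Their median difference was -0.32, beside -0.02 for all genes and -0.11 for the brighter ones. CCNF, the cyclin F receptor of an SCF ubiquitin ligase, had 6.93, 7.32 and 6.73 in pomalidomide arrays and 7.72, 7.64 and 8.04 in control arrays, a fall of 0.81 (adjusted p = 0.0151). CDCA8, a subunit of the chromosomal passenger complex, fell by 0.71 and the checkpoint kinase BUB1B by 0.49. NUSAP1 differed by -0.51 (adjusted p = 0.0782), and KIF11, the spindle motor that filanesib inhibits, by -0.43 (adjusted p = 0.274). KIF11 had 8.48, 8.27 and 7.73 in pomalidomide arrays and 8.42, 8.44 and 8.90 in control arrays, which overlapped. None of the 3 called genes was called without control array 1, control array 3 or pomalidomide array 3. Outside this list, SKA1, which ties kinetochores to microtubules, fell by 0.99.

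The largest protein-coding fall was that of AMPD1, which deaminates AMP in the purine nucleotide cycle. Its levels were 6.85, 7.12 and 6.14 in pomalidomide arrays and 7.90, 7.90 and 8.29 in control arrays, a difference of -1.33 ± 0.30 (adjusted p = 0.0231). MYBL2, a cell-cycle transcription factor, had 8.22, 8.54 and 8.36 in pomalidomide arrays and 9.49, 8.97 and 9.70 in control arrays. Its difference of -1.01 ± 0.17 (adjusted p = 0.00504) was called in all 6 omissions, as was that of DAPK1, a death-associated kinase, at -0.93 ± 0.16 (adjusted p = 0.00649). The other single drugs also lay below the DAPK1 controls (7.74 to 7.94), at 7.31 to 7.57 with filanesib and 7.32 to 7.47 with dexamethasone. Beside other drugs DAPK1 differed by -0.28 and was not called (limma, adjusted p = 0.131). Further falls among the 15 were PODXL2 at -1.14, KRTAP20-1 at -0.94, COTL1 at -0.93, MCM8 at -0.92, SH2D4A at -0.92, HMGA1, a chromatin architectural protein, at -0.90, and BAIAP2L1 at -0.86. KRTAP20-1 lay below the median gene level of 4.79 in both groups. Its controls (3.97 to 4.38) also lay above the filanesib (3.56 to 3.79) and dexamethasone arrays (2.87 to 3.77). Beside other drugs KRTAP20-1 differed by -0.26 and was not called. Of the 15 falls, 2 were called without control array 1, 5 without control array 3, 7 without pomalidomide array 3 and 14 or 15 in each other omission.

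Within the cereblon pathway, CRBN itself rose. It had 7.54, 7.23 and 7.35 in pomalidomide arrays and 6.67, 6.84 and 6.81 in control arrays, with no overlap. The difference was 0.60 ± 0.11 (adjusted p = 0.0105), and it was called in 5 of the 6 omissions. The other single drugs also lay above the controls, at 6.95 to 7.13 with filanesib and 7.02 to 7.26 with dexamethasone. None of the other 6 measured ligase genes was called, beside 1.98% of all genes. CUL4A, the cullin scaffold, differed by -0.42 (adjusted p = 0.25). Of 11 measured neosubstrate genes 0 were called, beside the same 1.98%. Their median difference was -0.18, beside -0.02 for all genes. IKZF3 had 3.00, 3.21 and 3.40 in pomalidomide arrays and 4.03, 3.55 and 3.59 in control arrays, low levels that did not overlap, with a difference of -0.52 (adjusted p = 0.171). IKZF1 had 7.31, 7.72 and 7.05 in pomalidomide arrays and 7.68, 7.40 and 7.58 in control arrays, which overlapped, with a difference of -0.19 (adjusted p = 0.5) that turned to 0.17 with pomalidomide array 2 as the only treated array. Beside other drugs IKZF1 was called higher, at 0.34 (adjusted p = 0.0153), and the neosubstrate list had a median of 0.09 with 9 of 11 differences positive. The difference between pomalidomide alone and beside other drugs did not pass for IKZF1 (-0.53, adjusted p = 0.199). It was called for 0 of the 11 neosubstrate genes, beside 0.0806% of all genes.

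Of 18 genes of the IRF4 and MYC axis and plasma cell factors, 3 were called lower, against 1.47% of all genes, and 0 higher. Their median difference was -0.22. Whether these genes followed a loss of Ikaros or Aiolos was not tested. MYB, a transcription factor of proliferating blood cells, had 4.20, 4.46 and 3.72 in pomalidomide arrays and 5.31, 4.93 and 5.36 in control arrays, a difference of -1.07 ± 0.22 (adjusted p = 0.0151). MYC had 9.91, 10.30 and 10.19 in pomalidomide arrays and 10.73, 10.45 and 10.75 in control arrays. The groups did not overlap, and the fall of 0.51 ± 0.13 (adjusted p = 0.0404), 1.43-fold, was called in 2 of the 6 omissions. ETS1 fell by 0.62.

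IRF4, the central transcription factor of plasma cells, had 9.47, 10.04 and 9.20 in pomalidomide arrays and 10.30, 10.19 and 10.43 in control arrays. All 3 pomalidomide levels were below the controls, array 2 only narrowly, and the difference of -0.74 ± 0.23 missed the threshold (adjusted p = 0.0933). Its probe set carries a non-coding transcript's accession in the probe table. XBP1, the secretory regulator, differed by -0.26 (adjusted p = 0.184).

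Beside 0.504% of all genes called higher and 1.47% lower, 1 of 16 plasma cell surface proteins and immunotherapy targets was called higher and 0 lower. This was CD47, an integrin-associated protein that inhibits phagocytosis, with 9.97, 9.54 and 9.76 in pomalidomide arrays and 9.19, 9.25 and 9.16 in control arrays, a rise of 0.56 ± 0.12 (adjusted p = 0.0203). SDC1, SLAMF7 and CD38 differed by -0.23, 0.27 and 0.17, with adjusted p of 0.21, 0.247 and 0.4. No gene of the pro-apoptotic BCL2 family (13 measured) or of the anti-apoptotic list (8 measured) was called. BMF, a BH3-only protein, had 6.76, 6.80 and 6.90 in pomalidomide arrays and 6.50, 6.55 and 6.70 in control arrays, a difference of 0.24 (adjusted p = 0.419), and PMAIP1, the BH3-only protein NOXA, differed by -0.48 (adjusted p = 0.164).

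Metabolic lists contributed single genes, beside 1.47% of all genes called lower. The glycolytic enzyme LDHA fell by 0.60 and ANKRD37, a hypoxia-responsive gene, by 0.73, 2 of 11 hypoxia and glycolysis genes. PHGDH, the first enzyme of serine synthesis, fell by 0.58 as 1 of 14 genes of the amino acid response, while PSAT1, the next enzyme, differed by -0.56 (adjusted p = 0.0879). FASN, which makes palmitate, fell by 0.66 as 1 of 20 lipid synthesis genes. BOP1, a factor of large ribosomal subunit assembly, was the one called gene of 12 for ribosome production, all of which had negative differences, and it had 6.96, 7.25 and 6.86 in pomalidomide arrays and 7.89, 7.52 and 7.59 in control arrays. The median of that list over the control mean was close to 0 in pomalidomide array 1, -0.13 in array 2 and -0.77 in array 3, so array 3 stood apart. VIM, the intermediate filament vimentin, fell by 0.58. No gene was called among 12 of the unfolded protein response, 7 of heat shock, 15 immediate early genes or 11 glucocorticoid targets.

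The same drug was also given beside other drugs, in 18 arrays that enter the comparison with control only through the pooled spread. The mean of the differences with and without pomalidomide beside filanesib, dexamethasone and both set 9 arrays against 9 and had 353 called genes (2.37%), 224 higher (1.5%) and 129 lower (0.867%). Of the 75 genes called higher with pomalidomide alone, 55 had a positive mean difference beside other drugs, 27 were called higher there and 3 were called lower. Of the 219 called lower, 189 had a negative difference and 29 were called lower. The 59 genes called in both comparisons were 20.1% of those called alone and 16.7% of those called beside other drugs. Medians were smaller beside other drugs, at 0.15 for the 75 higher genes and -0.14 for the 219 lower genes, which were selected on the comparison alone.

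**Figure D3:**
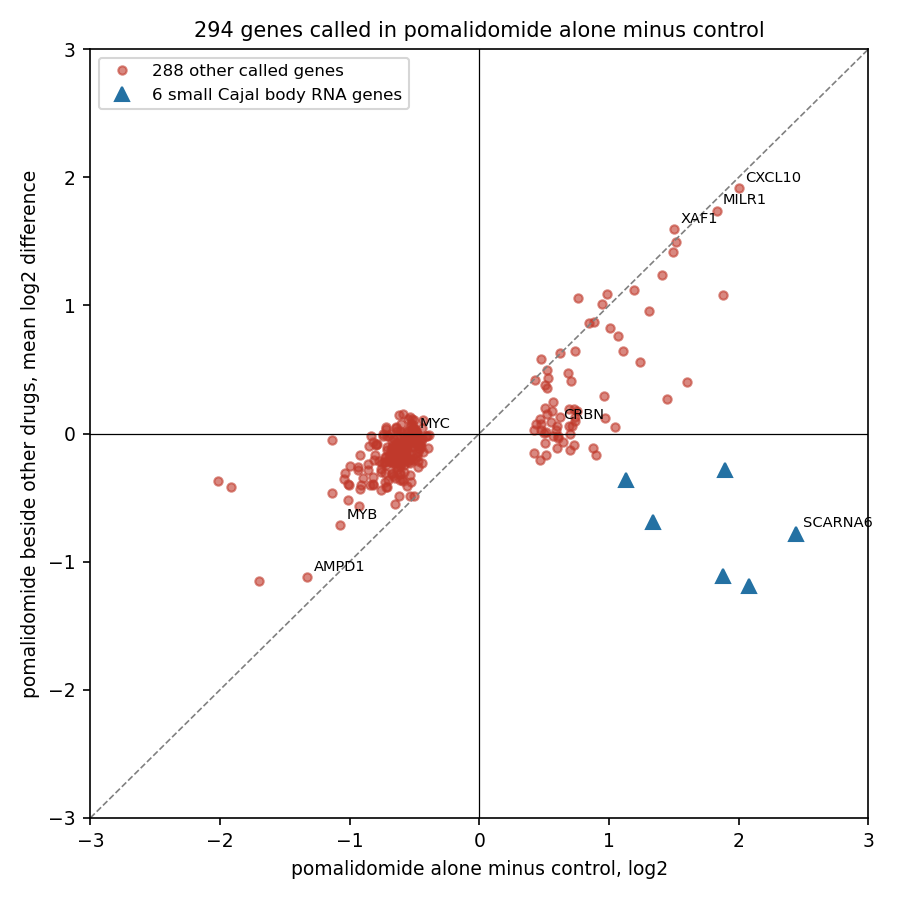
The 294 genes called with pomalidomide alone: log2 difference from control (x axis, 3 arrays against 3) against the mean log2 difference that pomalidomide made beside other drugs (y axis, 9 arrays against 9); the dashed line marks equal values. CXCL10, MILR1 and XAF1 lie close to it, most lower genes lie nearer to 0 on the y axis, and the 6 small Cajal body RNA genes lie above 0 on the x axis and below 0 on the y axis.

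Of the 32 effectors, 19 were called higher beside other drugs, against 1.5% of all genes. The list's median was 0.48 there, with 0.62 beside filanesib, 0.44 beside dexamethasone and 0.50 beside both. CXCL10 differed by 1.92, XAF1 by 1.59, IFI44 by 1.42, MILR1 by 1.74 and CD68 by 1.01 beside other drugs, all called. IFIT1 differed by 1.08 there, against 1.88 with pomalidomide alone. The sensing and signalling list had a median of 0.17 beside other drugs. There 6 of 25 genes were called higher, against 1.5% of all genes, and 20 differences were positive. AMPD1 fell by 1.12, MYB by 0.72 and MYBL2 by 0.52 there. For none of these 9 genes was the difference between both settings called.

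The replication list was called in 11 of 26 genes beside other drugs, all lower, against 0.867% of all genes, with a median of -0.31. The median of the difference between both settings was -0.35, and 0 of the 26 genes were called in it, beside 0.0806% of all genes. MYC differed by -0.01 beside other drugs and CRBN by 0.06, and the difference between settings was -0.51 (adjusted p = 0.199) for MYC and 0.53 (adjusted p = 0.124) for CRBN. These genes were therefore called with pomalidomide alone and not beside other drugs, while the difference itself did not pass.

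**Figure D4:**
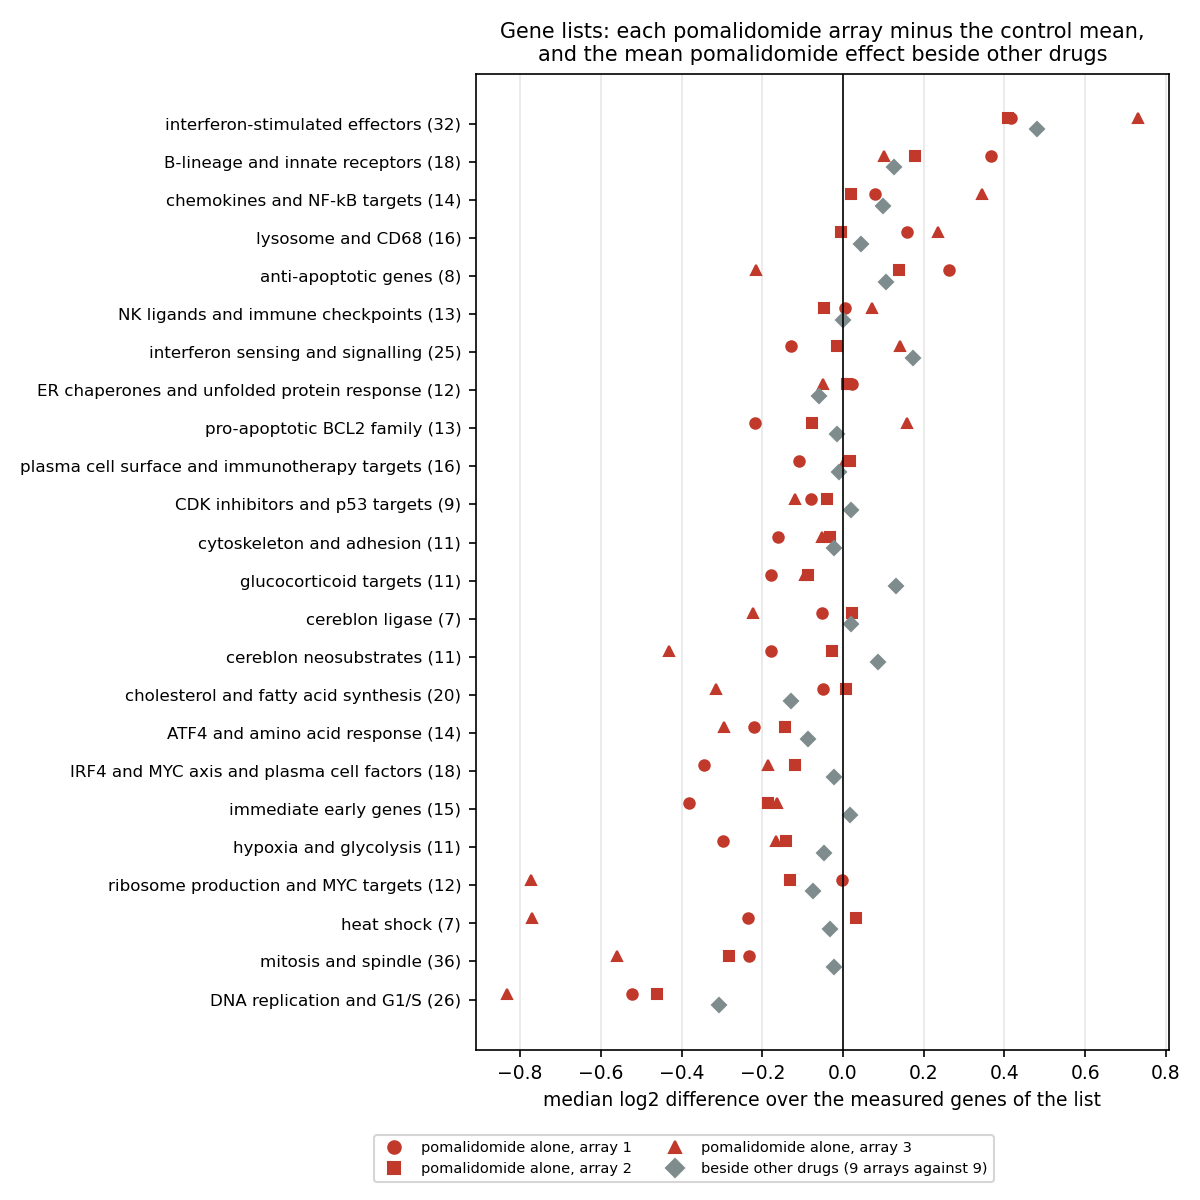
Median log2 difference over the measured genes of each list (number in brackets): each pomalidomide array minus the control mean (red, marker shape gives the array) and the mean effect of pomalidomide beside other drugs (grey diamonds). The interferon-stimulated effectors lie at 0.41 to 0.73 and the replication genes at -0.83 to -0.46 in the 3 arrays, and array 3 lies apart for ribosome production and heat shock genes.

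The difference between the settings was called for 12 genes (0.0806%), 9 higher with pomalidomide alone (0.0605%) and 3 lower (0.0202%). Without pomalidomide array 2 it was called for 284 genes, 61 higher and 223 lower, without control array 3 for 4 and without control array 1 for 6, all higher, and with array weights for 7. Small Cajal body RNAs, which guide the modification of spliceosomal RNAs, made up 7 of the 12. Of 23 such genes on the array, 6 were called higher with pomalidomide alone, against 0.504% of all genes, with a list median of 0.28. Beside other drugs 0 were called higher and 5 lower, against 0.867% of all genes called lower, with a median of -0.36. SCARNA10 had 10.59, 10.18 and 10.94 in pomalidomide arrays and 8.40, 9.14 and 8.49 in control arrays. Its difference of 1.90 ± 0.23 had the smallest adjusted p of the comparison (0.000261) and was the one call left with group weights.

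The other single drugs also had high values of these RNAs. SCARNA10 ranged from 9.34 to 10.35 with filanesib and from 9.92 to 10.44 with dexamethasone, and from 9.31 to 10.10 over the 9 arrays in which pomalidomide was combined. SCARNA1 had 5.32, 3.89 and 4.99 with pomalidomide, 3.50 to 5.31 with filanesib and 4.68 to 5.76 with dexamethasone, against 2.53 to 2.79 in control arrays. With pomalidomide plus dexamethasone it had 2.67 to 3.45, and with all 3 drugs 2.70 to 3.25. High levels were shared by the 3 single-drug groups, and the filanesib and dexamethasone arrays are among those set against pomalidomide beside other drugs. The other RNAs with a called difference showed the same order of single-drug arrays over control arrays, with overlap between dexamethasone and control arrays for SCARNA5.

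**Figure D5:**
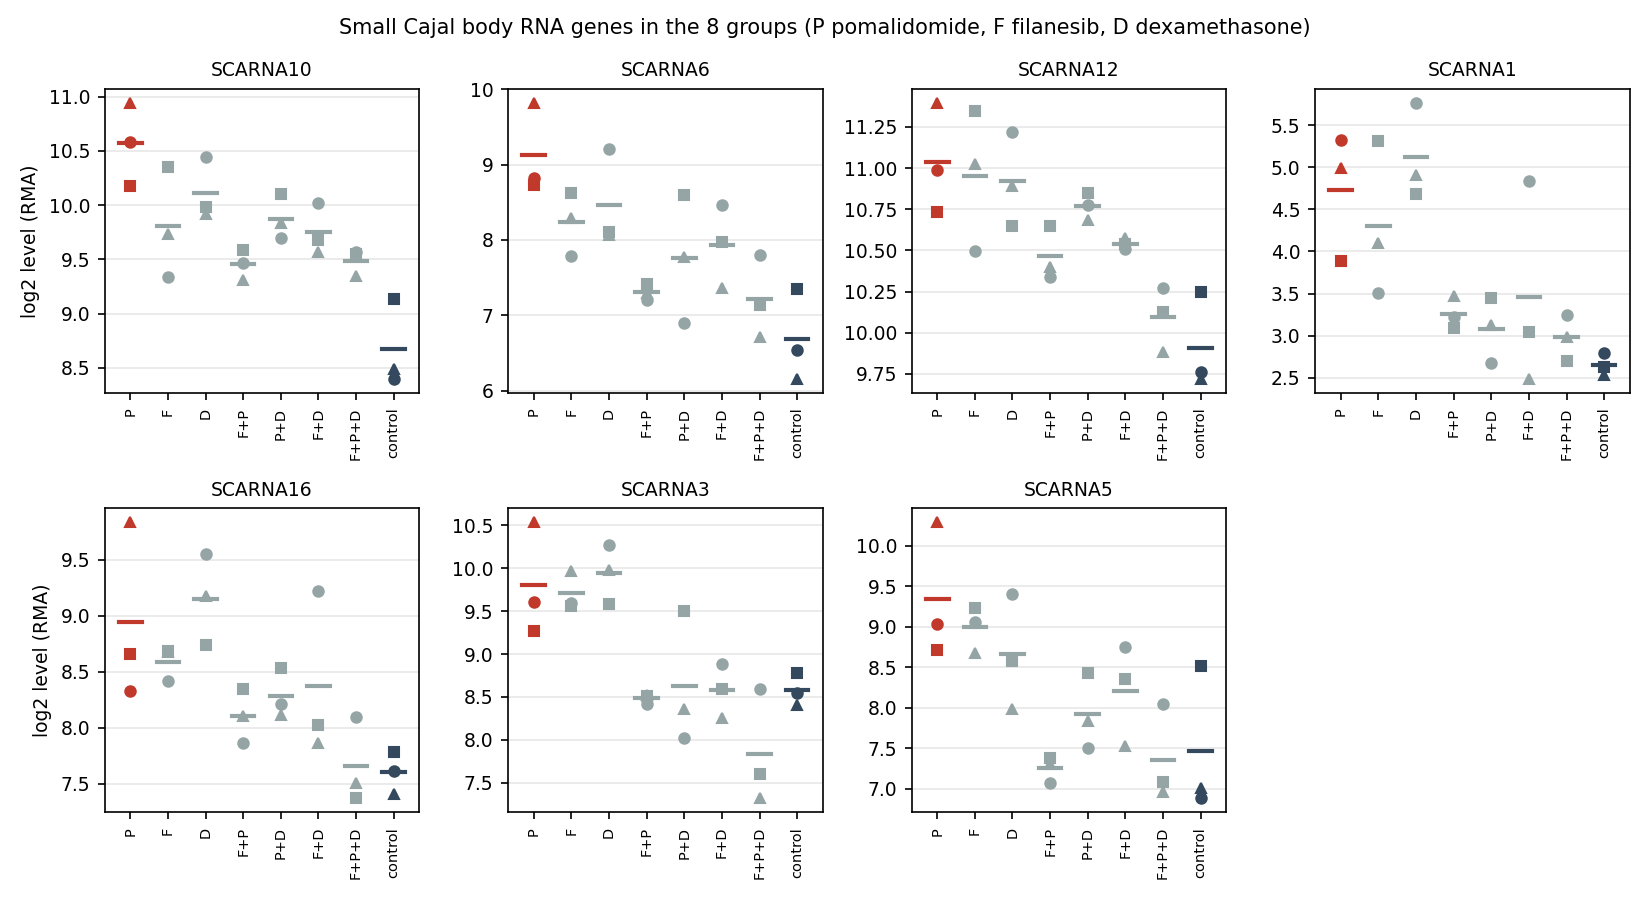
Log2 level per array of the 7 small Cajal body RNA genes whose pomalidomide effect differed between settings, in the 8 groups (red pomalidomide alone, dark blue control, grey other groups; bars are group means, and each panel has its own axis). Single-drug arrays lie high, as for SCARNA1 with 3.50 to 5.76 against 2.53 to 2.79 in control arrays, and combination arrays mostly lie between or near control.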

How the data were processed

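The authors deposited log2 levels for each probe set. Per the submitters' processing notes these come from RMA, which corrects background, quantile-normalises the arrays and summarises probes, run in Affymetrix Expression Console (version not given in the sources used here). In all, the table held 53617 probe sets on 24 arrays. Those with a single gene symbol (16098) were kept, with the probe set of highest mean for the 779 genes that had several. A model with 1 mean for each of the 8 groups was fitted over the 24 arrays with limma 3.58.1 in R 4.3.3 (lmFit and eBayes, 16 residual degrees of freedom), and two-sided p-values were adjusted by the Benjamini-Hochberg method over 14884 genes at a threshold of 0.05. An exact permutation test of 3 arrays against 3 cannot go below 0.1 and was not used. The number of arrays limits the precision, with a median SE of 0.14 for a difference of 2 groups. Every SE given here pools the spread over the 8 groups. The pomalidomide arrays spread more than the other arrays, so these SEs may be too small for their comparison with control.

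Genes named were the 15 largest called, non-overlapping protein-coding rises and falls, the 4 members of smallest p in each list (or fewer), 5 genes in each direction for the difference between settings, and a set of genes of interest; others are said to be chosen with values known. The members and lists were chosen with earlier results of these data known. Alternatives were further normalisation, array weights, a filter on dim genes, another variance prior, a replicate block, other sets of genes or arrays and omission of each array. ZFP91, PRDM1 and TNFRSF17 were not analysed here, since the probe table used names no probe set for them, and promoter sequences were not used here. Deviations from the group mean correlated at -0.14, -0.06 and -0.11 between pomalidomide and control arrays of the same number. Between arrays of different numbers the correlations were -0.08 to 0.17. With 3 arrays a group, whose deviations sum to 0, these values cannot decide whether the replicate numbers pair the arrays.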

Additional observations from a re-analysis of the deposited data

Results flagged for a closer look

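For 12 genes the effect of pomalidomide alone differed from its mean effect beside filanesib, dexamethasone or both (limma, Benjamini-Hochberg adjusted p under the threshold for the difference itself). The log2 difference between the effects was 2.18 for SCARNA10, 3.23 for SCARNA6, 1.5 for SCARNA12, 3.27 for SCARNA1, 2.32 for SCARNA3, 2.99 for SCARNA5 and 2.03 for SCARNA16, all small Cajal body RNA genes, and 0.99 for the microRNA gene MIR892A.

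Among protein-coding genes it was 0.68 for VMP1, a membrane protein of autophagy, -0.77 for PWP2 and -0.69 for BOP1, both ribosome assembly factors, and -0.70 for MAP3K3, a MAP kinase kinase kinase. PWP2 had 7.28, 7.35 and 6.73 in pomalidomide arrays and 7.82, 7.84 and 7.84 in control arrays, and between 7.34 and 7.77 in the other 18 arrays. MAP3K3 had 6.49, 6.31 and 6.27 in pomalidomide arrays and 6.92, 6.88 and 7.20 in control arrays. VMP1 had 10.11, 9.82 and 10.09 in pomalidomide arrays and 9.60, 9.48 and 9.69 in control arrays, did not pass in that comparison (adjusted p = 0.0596), and was lower by 0.26 beside other drugs. With protein-coding genes tested alone, 0 of them passed for the difference, against 1495 at an unadjusted p under 0.05.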

How the results depend on the processing

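Genes called with pomalidomide alone numbered 294, with 62 under array weights, 1 under group weights, 3 on the 6 arrays alone, 2 without pomalidomide replicates 1 and 3 (chosen after seeing the data), 180 with a minimum of 1.5-fold, and 23 to 828 with 1 array left out. Beside other drugs the count was 353, with 936 under array weights, 571 under group weights, 74 with a minimum of 1.5-fold, and 221 to 375 with 1 array left out (225 without pomalidomide plus dexamethasone replicate 1, 221 without replicate 1 of the triple combination). The difference was called for 12 genes, with 7 under array weights, 3 under group weights, 5 with a trended and robust prior, 0 in protein-coding genes, 47 over every probe set, 5 without pomalidomide replicates 1 and 3, and 4 to 284 with 1 array left out (284 without pomalidomide replicate 2, 6 without control replicate 1, 4 without control replicate 3). Non-overlapping genes numbered 2327, with 8315 over every probe set and 3251 to 4484 with 1 array left out, where fewer arrays overlap less. Called interferon effectors numbered 7, with 4 without dim genes, 3 under array weights, 0 under group weights, 3 with a trended and robust prior, 1 on the 6 arrays alone, 0 without pomalidomide replicates 1 and 3, and 2 to 9 with 1 array left out. Called replication genes numbered 16, with 5 under array weights, 0 under group weights, 0 on the 6 arrays alone, 0 without pomalidomide replicates 1 and 3, and 1 to 19 with 1 array left out. A replicate block gave 224, 340 and 9 genes for the 3 comparisons, 7 interferon effectors and 15 replication genes. Whether the numbers pair the arrays is not known. Over 104 named genes and 17 alternatives, 1 sign changed: IKZF1 was 0.17 without pomalidomide replicates 1 and 3. Calls were less stable than signs. Of 1736 values under alternatives, 504 lost the call of the main fit and 23 gained one. Of the 74 named genes called, 12 were called in all 6 omissions. The causes of these moves were not tested, except where fewer arrays or genes make them. Quantile normalisation by the authors hides a shift shared by most genes, and no detection value was used, so signal over background is not known for single probe sets.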

Other observations

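MicroRNA genes, chosen here with their values known, held the largest fall of any named gene. Of 1098 on the array 10 were called higher and 12 lower with pomalidomide alone, beside 0.504% and 1.47% of all genes. MIR4454 had 4.45, 3.06 and 3.75 in pomalidomide arrays and 5.92, 6.20 and 5.19 in control arrays, a difference of -2.02 (limma, adjusted p = 0.0183). MIR142, a microRNA gene of blood cells, had 3.56, 3.56 and 3.51 in pomalidomide arrays and 6.31, 4.15 and 5.92 in control arrays, a difference of -1.92 (adjusted p = 0.0362), with control array 2 far below the other controls. MIR539 differed by -1.70 and was called beside other drugs too, at -1.15. MIR98, of the let-7 family, differed by -1.0, with 4.71, 4.60 and 4.71 in pomalidomide arrays and 5.67, 5.75 and 5.62 in control arrays. MIR3147 rose by 1.60, with 7.04, 7.0 and 7.33 in pomalidomide arrays and 5.74, 5.33 and 5.48 in control arrays, and MIR130B rose by 1.24. Beside other drugs MIR3147 differed by 0.40 and MIR4454 by -0.37, and neither was called. Many of these probe sets lie below the median gene level, and mature microRNAs and their precursors cannot be told apart by the gene name.

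CD48, a SLAM family surface protein of plasma cells also chosen with its value known, had 9.14, 8.93 and 9.12 in pomalidomide arrays and 8.82, 8.90 and 8.92 in control arrays, a difference of 0.19 (adjusted p = 0.523). Beside other drugs it was called lower, at -0.48, but the difference between the settings was not called for CD48.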
